A study of Homo sapiens with 5 samples.

Results

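The 88 genes described here carry the symbols of the nuclear-encoded subunits of the mitochondrial respiratory chain and ATP synthase. They were chosen by symbol from the 25343 gene rows of the deposited count table. A row was taken if its symbol is NDUFA, NDUFB, NDUFC, NDUFS or NDUFV with a number, is SDHA, SDHB, SDHC or SDHD, or begins with UQCR, with COX4 to COX8, or with ATP5. Complex I (NADH dehydrogenase) has 37 of these rows, complex II (succinate dehydrogenase) 4, complex III (cytochrome bc1) 8, complex IV (cytochrome c oxidase) 16 and complex V (ATP synthase) 15. The other 8 rows match by symbol but are pseudogenes, retrocopies, a read-through transcript or proteins that are not subunits, and they are kept apart below. The table held 0 mitochondrially encoded rows, so the subunits made from mitochondrial DNA were not analysed here.

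Stranded mRNA sequencing was done on 5 libraries of SW620, an established human colon carcinoma cell line. In all 5 the cells had the genotype tet-MUC1shRNA, a tetracycline-inducible short hairpin RNA against the transmembrane mucin gene MUC1, and the study's title concerns the C-terminal subunit of that mucin and stem cell properties. The labels name 2 libraries pos (replicates 1 and 3) and 3 libraries neg (replicates 1, 2 and 3), and say that cells in RPMI1640 medium with serum received doxycycline or its vehicle without saying which name stands for which. Cells were grown in triplicate, nothing further is said of separate cultures or of clones, and p-values therefore measure only the spread between these samples, which may be technical. No library with doxycycline and a control hairpin was analysed here.

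The respiratory chain moves electrons from NADH (through complex I) and succinate (through complex II) by way of ubiquinone to complex III, cytochrome c and complex IV, where oxygen is reduced. Complexes I, III and IV pump protons across the inner mitochondrial membrane, and complex V uses the returning protons to make ATP. Most subunits are small proteins encoded in the nucleus, and many of their promoters carry sites for the factors NRF1, GABP (an ETS family factor) and YY1. In colon epithelium these complexes work beside glycolysis, and colon carcinoma cells in culture commonly use both.

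Between 10888704 and 14137678 reads were counted in genes per library, and 3 reads correspond to 0.189 to 0.316 CPM (counts scaled to library size, with TMM scaling between libraries). MUC1 had 27 and 13 reads in pos replicates 1 and 3, against 176, 252 and 218 reads in neg, so the gene targeted by the hairpin was lower in both pos libraries. The pos libraries detected 14452 and 15530 genes, fewer than the 16832 to 17054 of the neg libraries. They also stood apart from each other, with a Pearson correlation of log2 CPM of 0.912, against 0.983 to 0.993 among neg libraries. The epithelial markers EPCAM, KRT8, KRT18, CDH1, VIL1 and CDX2 were present in every library, at 18.0 CPM or more, and KRT20 was at 0 to 0.422 CPM in pos and 1.12 to 1.95 CPM in neg; of these 7, CDX2 passed the test as higher in pos and CDH1 as lower. The leukocyte markers PTPRC and CD3E and the mesenchymal marker COL3A1 had 0 reads in all 5 libraries, DCN stayed at or below 0.211 CPM, CD68 lay at 36.0 to 46.7 CPM in pos and 43.6 to 53.1 CPM in neg, and COL1A1, which passed the test as lower in pos, at 6.22 to 6.39 CPM in pos and 15.9 to 16.4 CPM in neg. What part these library differences have in the results below was not tested, and each pos library is therefore shown by itself.

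In the counts as deposited, transcripts of the respiratory chain and ATP synthase were higher in both pos libraries than in neg, across all 5 complexes. With the trend on canonical transcript length removed, the median of complex II in pos replicate 3 lay within the neg range, as given below. Together the 88 rows took 1.35% and 2.03% of all gene reads in pos replicates 1 and 3, against 0.866%, 0.802% and 0.713% in neg replicates 1, 2 and 3. Every pos share was above every neg share. CPM is a share of each library, so more of these transcripts per cell and less of the others cannot be told apart.

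Of the 88 rows, 79 passed the filter on low counts and were tested. In edgeR's quasi-likelihood test across all 13604 tested genes, 40 of the 79 were higher in pos at a Benjamini-Hochberg adjusted p under 0.05, where 5.06% of all tested genes were. A single row, COX6B2, was lower, where 4.13% of all tested genes were, and 38 did not pass. No other row was lower at an unadjusted p under 0.05, or in DESeq2 or limma-voom. The groups did not overlap in 76 of the 79 rows, with pos higher in 75 (26.7% of all tested genes) and lower in 1 (29.3%). The groups overlapped in NDUFV3, NDUFS1 and ATP5S. The median log2 fold change was 1.68 over the 79 rows, against -0.05 over all tested genes.

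The size of the difference depended on the pos library. Relative to the neg mean, the members' median log2 ratio was 0.95 in pos replicate 1 and 2.15 in pos replicate 3, while the neg libraries, each set against the other 2, had medians of 0.25, 0.00 and -0.25. In 77 of the 79 rows pos replicate 3 was above pos replicate 1. The ratios in the 2 pos libraries went together across the 79 rows (Pearson 0.814, Spearman 0.757), a description over genes that share libraries and are not independent. Without pos replicate 3 the median log2 fold change was 0.92, and without pos replicate 1 it was 2.19. Left out in turn, neg replicates 1, 2 and 3 each reduced the edgeR calls to 0 over all tested genes, members included. In these fits 69, 65 and 64 members had an unadjusted p under 0.05, as did 3033, 2510 and 2607 of all tested genes. DESeq2 on all 5 libraries called 68 members higher (13.2% of all tested genes) and 1 lower (10%).

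**Figure D1:**
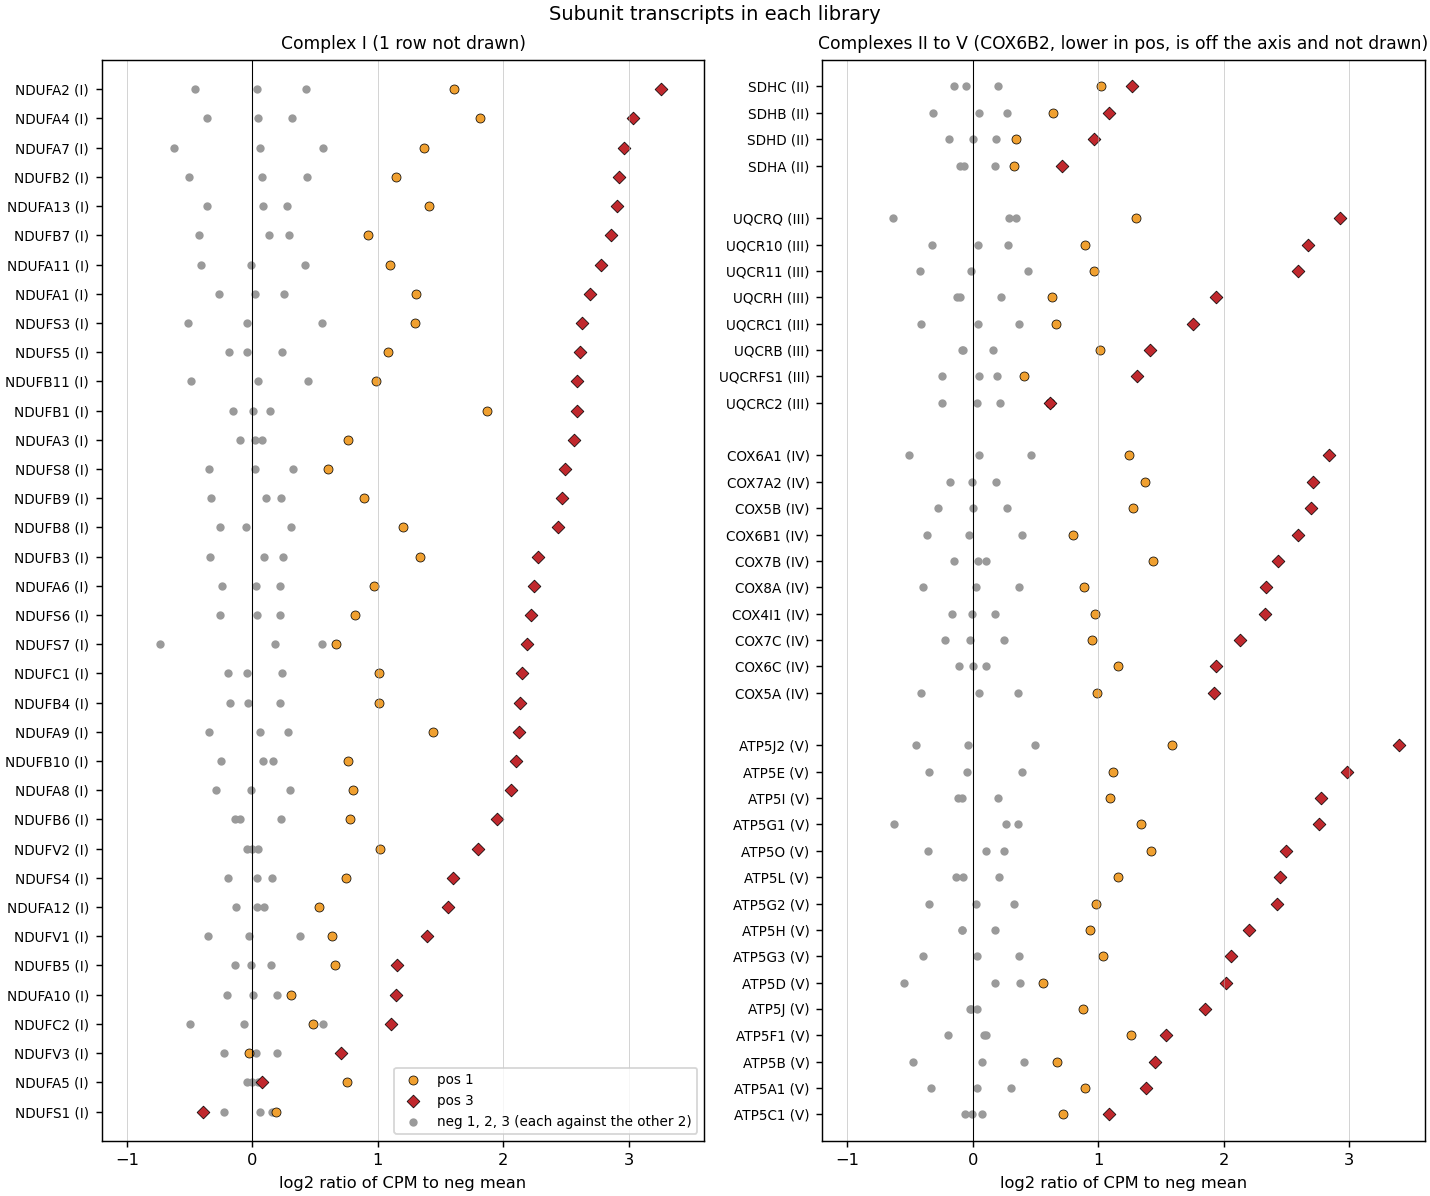
Log2 ratio of CPM to the neg mean for tested subunit rows of complex I (left, all but 1 row) and complexes II to V (right), ordered within a complex by pos replicate 3. Orange circles are pos replicate 1, red diamonds pos replicate 3 and grey dots the 3 neg libraries, each set against the other 2; pos replicate 3 lies to the right in all but 2 rows of complex I, NDUFA5 and NDUFS1, and COX6B2, which was lower in pos, is not drawn.

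Promoters of 4 members are shown for the letters that 3 factors known for this gene class recognise, and were picked after the values were seen. COX5B and ATP5J (now ATP5PF) rose in pos, SDHB did not pass the test, and NDUFS1 had the smallest log2 fold change of the complex I rows. The sequences are those of RefSeq on GRCh38.p14, from 250 bases before to 50 bases after the annotated start, given on the gene's own strand. Capitals mark the letters GCATGCGC (NRF1), CCGGAAG (ETS family) and AAGATGGC (YY1) or their reverse complements GCGCATGC, CTTCCGG and GCCATCTT. The COX5B window is chr2:97645812-97646111 on the plus strand. The others lie on the minus strand, ATP5J at chr21:25735005-25735304, SDHB at chr1:17053983-17054282 and NDUFS1 at chr2:206159395-206159694.
COX5B: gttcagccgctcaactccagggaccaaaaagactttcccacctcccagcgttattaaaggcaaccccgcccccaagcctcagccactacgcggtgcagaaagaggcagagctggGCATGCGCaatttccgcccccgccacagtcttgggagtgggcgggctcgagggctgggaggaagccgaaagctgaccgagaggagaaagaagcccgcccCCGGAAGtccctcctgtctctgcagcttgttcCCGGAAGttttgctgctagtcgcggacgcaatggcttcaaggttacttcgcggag
ATP5J: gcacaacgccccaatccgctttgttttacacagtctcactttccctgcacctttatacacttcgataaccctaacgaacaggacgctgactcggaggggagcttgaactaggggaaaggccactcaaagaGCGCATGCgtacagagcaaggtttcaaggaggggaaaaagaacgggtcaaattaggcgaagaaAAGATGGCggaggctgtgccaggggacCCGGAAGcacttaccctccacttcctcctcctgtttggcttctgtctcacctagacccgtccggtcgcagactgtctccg
SDHB: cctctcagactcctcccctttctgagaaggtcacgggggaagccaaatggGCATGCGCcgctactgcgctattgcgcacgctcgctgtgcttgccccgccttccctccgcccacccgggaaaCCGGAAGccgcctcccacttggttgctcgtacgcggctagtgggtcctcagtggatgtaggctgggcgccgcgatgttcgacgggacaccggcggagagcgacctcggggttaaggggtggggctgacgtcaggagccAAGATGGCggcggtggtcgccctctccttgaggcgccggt
NDUFS1: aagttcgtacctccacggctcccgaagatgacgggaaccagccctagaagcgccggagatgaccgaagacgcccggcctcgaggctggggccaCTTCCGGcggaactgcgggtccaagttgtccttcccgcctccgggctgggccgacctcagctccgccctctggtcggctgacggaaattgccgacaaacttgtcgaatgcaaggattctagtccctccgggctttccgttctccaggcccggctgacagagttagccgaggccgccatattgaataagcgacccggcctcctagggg
In COX5B the NRF1 letters begin 136 bases before the start and ETS letters 37 and 5 bases before it. ATP5J holds NRF1 letters 120 bases, YY1 letters 57 bases and ETS letters 30 bases before the start. SDHB holds NRF1 letters 200 bases and ETS letters 128 bases before the start, and YY1 letters from base 11 of the transcript. NDUFS1 holds only ETS letters, 157 bases before the start. COX5B, ATP5J and SDHB thus hold 3 matches each, while NDUFB1, NDUFA2, COX7B and ATP5A1, which rose in pos, hold 0. Whether matches go with the rise was not tested.

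The table had promoters for 67 of the 88 members and for 27305 genes in all. The latter were not limited to genes expressed or tested here, so the shares below are not set against expressed genes alone. Among the 62 tested subunit genes with a promoter, 33 (53.2%) held at least 1 of the 3 motifs on either strand, against 15.6% of all promoters. NRF1 letters were in 13 of the 62 (21.0%, against 3.3% of all promoters), ETS letters in 19 (30.6%, against 10.7%) and YY1 letters in 11 (17.7%, against 3.0%). With the longer letters GCGCATGCG for NRF1, which contain the shorter reverse complement, these were 10 of 62 (16.1%, against 2.1%). By complex, NRF1 letters were in 5 of 31 promoters of complex I, 2 of 3 of complex II, 0 of 7 of complex III, 2 of 10 of complex IV and 4 of 11 of complex V. A match is a run of letters in this window and no evidence that a factor binds there. The factors' own transcripts did not pass the test, with log2 fold changes of -0.33 for NRF1 (adjusted p = 0.277), -0.77 for the ETS factor gene GABPA (adjusted p = 0.193) and -0.41 for YY1 (adjusted p = 0.328). With the trend on canonical transcript length removed, as described below, they were -0.23, -0.40 and 0.14. On coding length they were -0.28, -0.78 and -0.47, so the direction of YY1 depended on the fit. None of the factors passed in either length fit.

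In complex I, 17 of 37 rows rose in pos and 0 fell, with a median log2 fold change of 1.74. The complex is an L-shaped enzyme whose matrix arm holds the flavin and iron-sulphur clusters and whose membrane arm pumps protons. Accessory subunits, which surround the catalytic core, rose in 15 of 30 rows (median 1.84), and core subunits in 2 of 7 (median 1.46). Which of these medians was higher depended on the length measure, as given below.

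Among the accessory subunits, NDUFB1 of the membrane arm had the smallest p of all members, with 69.8 and 114 CPM in pos replicates 1 and 3, against 19.0, 17.7 and 20.3 CPM in neg replicates 1, 2 and 3. It was 4.85-fold higher in pos (log2 fold change 2.28, SE 0.26, adjusted p = 0.027). Both pos libraries lay above every neg library, and the 3 neg libraries were close together. NDUFA2, a small subunit of the matrix arm, had the largest log2 fold change of complex I, with 78.7 and 248 CPM in pos, against 31.5, 26.2 and 20.8 CPM in neg (2.64, SE 0.49, adjusted p = 0.039). Its value in pos replicate 3 was far above that in pos replicate 1, and its log2 fold change was 1.56 without pos replicate 3. NDUFB3, another membrane arm subunit, reached 47.3 and 90.5 CPM in pos, against 20.8, 15.9 and 19.4 CPM in neg (log2 fold change 1.88, SE 0.32, adjusted p = 0.0376).

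NDUFA9 sits at the junction of both arms, near the ubiquinone site. It stood at 260 and 418 CPM in pos, against 110, 98.6 and 81.7 CPM in neg, a 3.51-fold rise (log2 fold change 1.81, SE 0.27, adjusted p = 0.0336). NDUFA4 is counted here by its symbol, although present annotation places its protein in complex IV. Its level was 569 ± 322 CPM in pos (SD, n = 2), from 341 CPM in replicate 1 and 797 CPM in replicate 3, against 98.1 ± 15.2 CPM in neg (SD, n = 3), with 113, 99.2 and 82.3 CPM. That is a 5.80-fold rise with no overlap (log2 fold change 2.54, SE 0.38, adjusted p = 0.0337). Moving NDUFA4 to complex IV left the medians at 1.72 for complex I and 1.87 for complex IV.

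The core subunits carry the cofactors, and 2 of 7 passed the test. NDUFV2, which holds an iron-sulphur cluster beside the flavin, rose to 133 and 228 CPM in pos, against 66.8, 65.3 and 64.1 CPM in neg (log2 fold change 1.46, SE 0.26, adjusted p = 0.0386). NDUFS3, a core subunit of the matrix arm, rose to 126 and 316 CPM in pos, against 66.1, 50.0 and 40.2 CPM in neg (2.08, SE 0.43, adjusted p = 0.0444).

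NDUFV1, which binds the flavin that accepts electrons from NADH, had 189 and 318 CPM in pos, against 145, 120 and 103 CPM in neg (log2 fold change 1.05, SE 0.29, adjusted p = 0.0672). NDUFS7, which holds the last iron-sulphur cluster before ubiquinone, had 48.5 and 139 CPM in pos, against 39.4, 33.1 and 21.6 CPM in neg (log2 fold change 1.58, SE 0.48, adjusted p = 0.0815). For both genes the 2 pos libraries were above every neg library but the adjusted p did not reach the threshold.

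NDUFS1, the largest core subunit, with several iron-sulphur clusters, was the subunit row whose pos libraries lay on opposite sides of neg. It had 165 CPM in pos replicate 1 and 110 CPM in pos replicate 3, against 155, 149 and 130 CPM in neg. Pos replicate 1 was above and pos replicate 3 below all 3 neg libraries (log2 fold change -0.07, SE 0.24, adjusted p = 0.838). NDUFA5, an accessory subunit of the matrix arm, was the other row of complex I with a higher value in pos replicate 1, at 62.4 and 38.9 CPM in pos, against 36.2, 36.8 and 37.7 CPM in neg (0.46, SE 0.25, adjusted p = 0.234).

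Complex II had the smallest differences. It is the citrate cycle enzyme succinate dehydrogenase, has no mitochondrially encoded subunit and pumps no protons. Its membrane anchor SDHC rose to 73.2 and 87.0 CPM in pos, against 39.6, 33.7 and 35.2 CPM in neg (log2 fold change 1.15, SE 0.19, adjusted p = 0.0373). The pos libraries were close to each other and well above neg.

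The other 3 rows of complex II did not pass, although neither group overlapped the other in any of them. SDHB, the iron-sulphur subunit whose promoter is shown above, had 163 and 222 CPM in pos, against 118, 107 and 89.9 CPM in neg (log2 fold change 0.87, SE 0.23, adjusted p = 0.0625). SDHD, the other anchor, had 68.1 and 105 CPM in pos, against 49.2, 53.7 and 58.4 CPM in neg (0.69, SE 0.24, adjusted p = 0.11). SDHA, the flavoprotein that oxidises succinate, had 181 and 235 CPM in pos, against 156, 139 and 137 CPM in neg (0.53, SE 0.20, adjusted p = 0.127). The median of the 4 rows was 0.78, and 1 of 4 passed.

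In complex III, which passes electrons from ubiquinol to cytochrome c, 2 of 8 rows rose and 0 fell, with a median log2 fold change of 1.36. Both were small subunits. UQCRQ stood at 113 and 347 CPM in pos, against 53.7, 52.2 and 34.0 CPM in neg (2.30, SE 0.49, adjusted p = 0.0453). UQCRB, which lies close to the ubiquinone sites, stood at 229 and 301 CPM in pos, against 109, 109 and 122 CPM in neg (1.22, SE 0.20, adjusted p = 0.0369). The groups did not overlap in either, and the gap between the pos libraries was wide in UQCRQ and small in UQCRB.

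The 3 large nuclear subunits of complex III did not pass the test. UQCRFS1, the Rieske iron-sulphur protein, had 76.8 and 143 CPM in pos, against 63.2, 59.1 and 51.4 CPM in neg (log2 fold change 0.92, SE 0.30, adjusted p = 0.0909). UQCRC1, a core protein related to mitochondrial processing peptidases, had 397 and 845 CPM in pos, against 296, 255 and 207 CPM in neg (1.30, SE 0.35, adjusted p = 0.0672). UQCRC2, its partner, had 286 and 287 CPM in pos, against 207, 190 and 167 CPM in neg (0.61, SE 0.19, adjusted p = 0.0816). UQCRC2 was the complex III row whose pos libraries were nearest to each other. The median of the 3 was 0.92, against 1.98 for the 5 small subunits, an order that reversed on coding length, as given below.

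Complex IV, where oxygen is reduced, had the highest median log2 fold change, 1.80 over its 11 tested rows, of which 8 rose and 1 fell. The rises were all among the 10 ubiquitous subunits. COX7B, a small membrane subunit, had the smallest p of the complex, with 774 ± 363 CPM in pos (SD, n = 2), from 517 CPM in replicate 1 and 1032 CPM in replicate 3, against 191 ± 11.5 CPM in neg (SD, n = 3). It was 4.05-fold higher in pos (log2 fold change 2.02, SE 0.31, adjusted p = 0.0345). Its neg values were 201, 194 and 178 CPM, so the groups were far apart.

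COX6A1 and COX7A2 are the widely expressed forms of subunits that also have heart and muscle forms. COX7A2 rose to 273 and 691 CPM in pos, against 115, 105 and 96.9 CPM in neg (log2 fold change 2.19, SE 0.39, adjusted p = 0.0386). COX6A1 rose to 134 and 403 CPM in pos, against 69.8, 57.5 and 44.4 CPM in neg (2.23, SE 0.47, adjusted p = 0.0453). Pos replicate 3 was the highest library in both, and pos replicate 1 was next.

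COX4I1, COX5A and COX5B are the larger nuclear subunits, which contact the catalytic core of the enzyme. COX5B rose to 189 and 506 CPM in pos, against 88.7, 78.1 and 68.6 CPM in neg (log2 fold change 2.15, SE 0.41, adjusted p = 0.0403). COX5A rose to 255 and 488 CPM in pos, against 152, 132 and 106 CPM in neg (1.52, SE 0.32, adjusted p = 0.0453). COX4I1 rose to 436 and 1116 CPM in pos, against 241, 221 and 206 CPM in neg (1.80, SE 0.39, adjusted p = 0.0462). COX6C, a small membrane subunit, rose as well, with 99.8 and 172 CPM in pos, against 47.1, 42.6 and 44.8 CPM in neg (1.60, SE 0.27, adjusted p = 0.0373).

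The tissue-restricted forms of complex IV had few or no reads. COX4I2 (the lung form), COX6A2 (heart and muscle), COX7B2 and COX8C (both known from testis) had 0 reads in all 5 libraries, and COX7A1 (heart and muscle) had 0 reads in both pos libraries, against 3, 5 and 0 in neg. COX6B2, the testis form of COX6B1, fell. It had 0 and 3 reads in pos replicates 1 and 3, against 35, 47 and 24 in neg, or 0 and 0.316 CPM against 2.45, 2.95 and 1.93 CPM. Summed and scaled to library size, the ratio of pos to neg reads was 0.0553 (exact 95% interval 0.0112 to 0.166, which covers counting error only), and the edgeR adjusted p was 0.0457. The ubiquitous form COX6B1 had 186 and 646 CPM in pos, against 128, 106 and 90.6 CPM in neg (log2 fold change 1.94, SE 0.50, adjusted p = 0.0614), and did not pass.

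**Figure D2:**
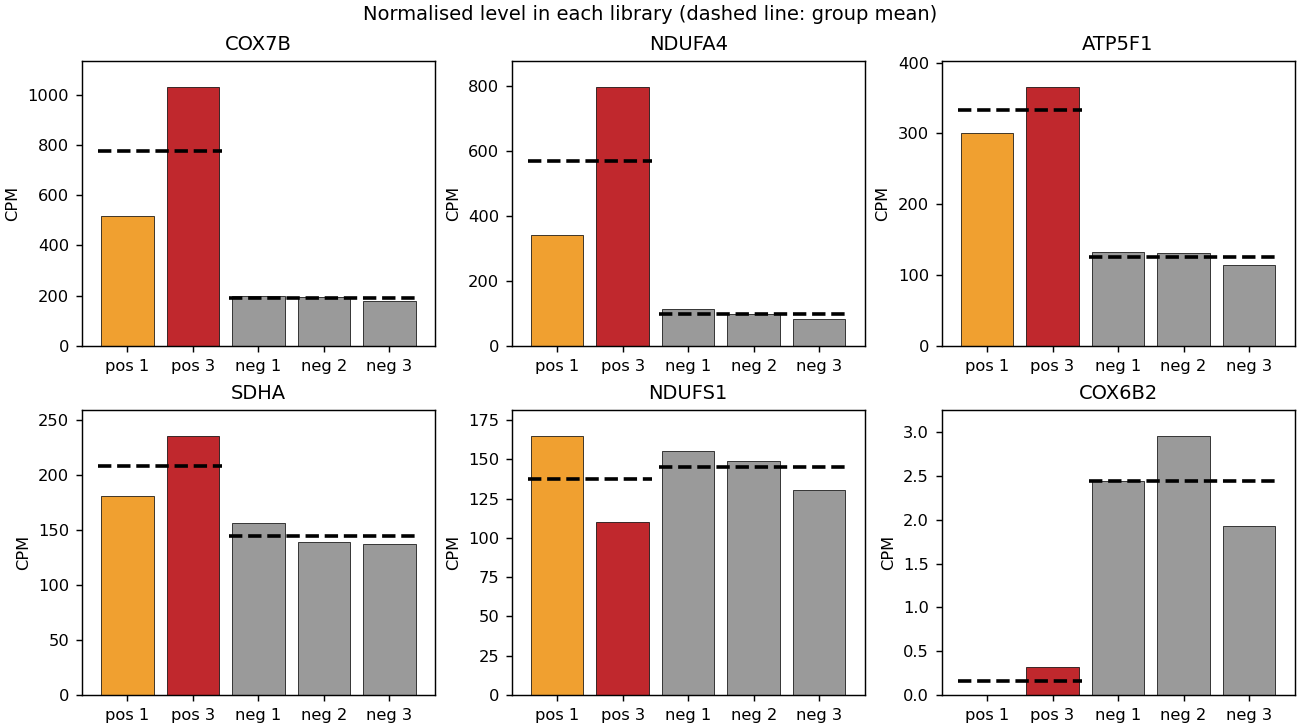
Level in CPM (axes from 0, a different scale in each panel) of 6 members in pos replicates 1 and 3 (orange and red bars) and neg replicates 1, 2 and 3 (grey bars), with the group mean as a dashed line. COX7B, NDUFA4 and ATP5F1 rose in pos, SDHA was higher in both pos libraries without passing the test, NDUFS1 had pos values of 165 and 110 CPM on either side of neg, and COX6B2 fell.

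In complex V, 11 of 15 rows rose in pos and 0 fell, with a median log2 fold change of 1.70. The enzyme has a catalytic F1 head in the matrix, a membrane-bound rotor made of c subunits, a peripheral stalk that holds the head still, and small membrane subunits that join enzymes into dimers. All 4 stalk rows rose (median 1.57), as did the 3 small membrane rows (2.16), 2 of 3 c subunit rows (1.86) and 2 of 5 head rows (1.15). The order of these medians also depended on the length measure.

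Of the stalk, ATP5F1 (now ATP5PB), subunit b, had the smallest p of the complex, with 333 ± 45.7 CPM in pos (SD, n = 2), from 301 and 366 CPM, against 126 ± 9.79 CPM in neg (SD, n = 3), from 132, 131 and 115 CPM. The pos libraries were close to each other, and the rise was 2.65-fold (log2 fold change 1.41, SE 0.19, adjusted p = 0.0326). ATP5O (now ATP5PO), which joins the stalk to the head, rose to 315 and 664 CPM in pos, against 132, 124 and 100 CPM in neg (2.04, SE 0.34, adjusted p = 0.0373). ATP5J, subunit F6, whose promoter is shown above, rose to 100 and 196 CPM in pos, against 55.2, 53.9 and 53.7 CPM in neg (1.45, SE 0.30, adjusted p = 0.0448).

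Among the small membrane subunits, ATP5J2 (now ATP5MF), subunit f, had the largest log2 fold change of all members. Its values were 79.7 and 281 CPM in pos, against 33.3, 26.0 and 21.5 CPM in neg (2.74, SE 0.53, adjusted p = 0.0403), and 1.54 without pos replicate 3. ATP5L (now ATP5MG), subunit g, which takes part in dimer formation, rose to 392 and 956 CPM in pos, against 193, 169 and 165 CPM in neg (1.94, SE 0.38, adjusted p = 0.041). Both rows showed the wide gap between the pos libraries that was common in the family.

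In the F1 head, ATP5A1 (now ATP5F1A), subunit alpha, rose to 415 and 578 CPM in pos, against 256, 226 and 191 CPM in neg (log2 fold change 1.15, SE 0.24, adjusted p = 0.0446). ATP5C1 (now ATP5F1C), the central gamma shaft, rose least among the called subunits, to 297 and 385 CPM in pos, against 176, 187 and 180 CPM in neg (0.91, SE 0.19, adjusted p = 0.0453). ATP5B (now ATP5F1B), the catalytic beta subunit, was at 1277 and 2202 CPM in pos, against 969, 830 and 645 CPM in neg, and did not pass (1.09, SE 0.32, adjusted p = 0.0748). In all 3 the groups were apart, and in ATP5B the neg libraries also varied widely.

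The c subunit of the rotor is made from 3 genes whose mature proteins are the same. ATP5G1 rose to 82.7 and 222 CPM in pos, against 38.5, 36.8 and 24.3 CPM in neg (log2 fold change 2.19, SE 0.45, adjusted p = 0.0441). ATP5G3 rose to 213 and 434 CPM in pos, against 123, 106 and 86.4 CPM in neg (1.62, SE 0.34, adjusted p = 0.0448). ATP5G2 had 569 and 1548 CPM in pos, against 335, 292 and 245 CPM in neg, and narrowly missed the threshold (1.86, SE 0.43, adjusted p = 0.0501). ATP5G2 gave most of the c subunit reads in every library, 65.79% and 70.26% in pos, against 67.48%, 67.21% and 68.92% in neg. The share of ATP5G1 was 9.56% and 10.06% in pos, against 7.75%, 8.48% and 6.82% in neg, so it was higher in both pos libraries, while ATP5G3, at 24.65% and 19.68% in pos, against 24.76%, 24.31% and 24.26% in neg, was lower in pos replicate 3. These shares were not tested.

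Transcript length went with the differences. Members have short transcripts, with a median of 857 nt for the annotated canonical transcript (GENCODE 44), against 3239 nt over all tested genes, and short transcripts in general were higher in the pos libraries. Across the 79 members, log10 length and log2 ratio had a Pearson correlation of -0.286 in pos replicate 1 and -0.573 in pos replicate 3 (Spearman -0.429 and -0.615), a description over genes that share libraries. Within the members, the 25 subunit rows with coding sequences of 153 to 324 nt had median log2 ratios of 1.12 and 2.59 in pos replicates 1 and 3. The 25 rows of 327 to 516 nt had 0.98 and 2.20, and the 25 rows of 516 to 2181 nt had 0.67 and 1.45.

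Members were also set beside other genes in wide bins of canonical length, within which lengths can still differ. Tested genes were ordered by canonical length and split into 5 equal bins. In the shortest bin, 66 to 1723 nt, the 59 members had median log2 ratios of 0.97 and 2.33 in pos replicates 1 and 3, against 0.35 and 1.16 for 2593 other genes. In the longest bin, 5684 to 109224 nt, the 5 members had 0.90 and 1.38, against -0.26 and -1.25 for 2647 other genes. Of these members, NDUFA9, UQCRB and ATP5A1 have a median protein-coding transcript of only 642, 595 and 910 nt. For NDUFS1 and NDUFV3 it is 2371 and 4676 nt, so the bin does not match members and other genes on that measure. The members' medians were above those of the other genes in all 5 bins and both pos libraries, though the bins between held only 8, 4 and 3 members. That comparison was not tested.

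**Figure D3:**
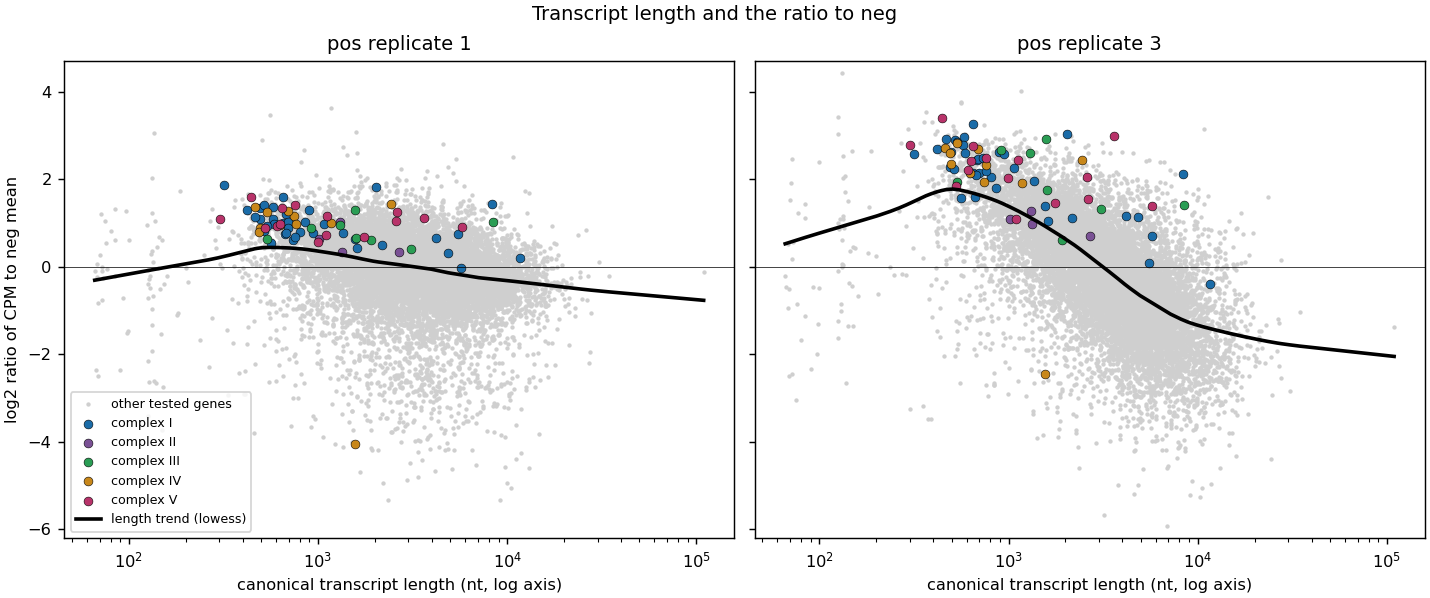
Log2 ratio of CPM to the neg mean against annotated canonical transcript length (log axis) in pos replicate 1 (left) and pos replicate 3 (right), for all tested genes (grey) and members coloured by complex. The black line is the smoothed trend over all tested genes, which is steeper in pos replicate 3, and 77 and 72 of the 79 members lie above it in pos replicates 1 and 3, with COX6B2 far below.

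When the trend of log2 CPM on canonical length was taken out of every library before the test, the members' median log2 fold change was 0.72 (all tested genes -0.02), and edgeR called 44 higher and 1 lower, where 7.67% and 7.31% of all tested genes were called. With coding length in its place the median was 0.83, with 28 called higher and 1 lower, where 4.56% and 4.61% of all tested genes were. By library, the members' median log2 ratios in pos replicates 1 and 3 were 0.56 and 0.85 on canonical length. On coding length they were 0.59 and 1.02. Of the 40 rows higher in the counts as deposited, 33 were also called with the canonical trend removed, and 26 of those also with the coding trend removed. Among the rows named above, SDHC (adjusted p = 0.159 canonical and 0.105 coding) and COX6C (0.077 and 0.139) passed in neither. Nor did ATP5J (0.279 and 0.103) or ATP5C1 (0.718 and 0.0532), whose log2 fold changes with the canonical trend removed were 0.27 and 0.12. The annotated canonical transcript is more than 5 times as long as the coding sequence in 13 tested subunit rows, so fits on both lengths are given. NDUFA9, for example, has a canonical transcript of 8356 nt, a coding length of 1131 nt and a median protein-coding transcript of 642 nt, and its log2 fold change was 2.72 with the canonical and 1.66 with the coding trend removed. UQCRB behaved likewise, at 2.12 (adjusted p = 0.0179) and 0.34 (adjusted p = 0.28), so its call did not hold with coding length. The log2 fold change of 3 members changed sign with the canonical trend removed (NDUFA12, NDUFS1 and SDHD) and that of 5 with the coding trend removed (NDUFA5, NDUFC2, NDUFS1, COX7A2L and ATP5S), and none of these passed the test in the counts as deposited.

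The order of the complexes shifted with these choices. In the counts as deposited the medians for complexes I to V were 1.74, 0.78, 1.36, 1.80 and 1.70. With the canonical trend removed they were 0.77, 0.21, 0.91, 0.65 and 0.98, and with the coding trend removed 0.89, 0.56, 0.58, 0.77 and 0.97. With the trend on the median length of a gene's protein-coding transcripts removed they were 1.46, 0.52, 1.20, 1.55 and 1.50. Complex II was lowest in all 4, while the highest was complex IV in the counts as deposited and with the last length measure, and complex V in the other 2. No test between complexes was made. Rows called higher with the canonical trend removed numbered 19 of 37, 0 of 4, 5 of 8, 7 of 11 and 12 of 15, and with the coding trend removed 14, 0, 0, 6 and 8. Within complexes the order of parts shifted too. In complex I, accessory and core medians were 0.80 and 0.46 on canonical length, and 0.86 and 1.04 on coding length. In complex III, small and large subunits had 1.12 and 0.67 on canonical length, and 0.48 and 0.59 on coding length. In complex V, head, stalk, c subunit and small membrane rows had 0.58, 0.72, 0.98 and 1.11 on canonical length. On coding length they had 0.75, 1.01, 1.02 and 0.89. These orders were not tested.

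By library, complex II also had the smallest medians, 0.49 and 1.03 in pos replicates 1 and 3. With the canonical trend removed its medians were again the smallest, at 0.29 and 0.0094. Its medians in neg replicates 1, 2 and 3 were 0.053, -0.049 and 0.057 in that fit, so pos replicate 3 lay within the neg range. With the coding trend removed complex II was smallest in pos replicate 3 alone, since in pos replicate 1 complex III, at 0.42, lay below complex II, at 0.47. In the counts as deposited complex I had 0.92 and 2.22, complex III 0.78 and 1.85, complex IV 0.99 and 2.34, and complex V 1.04 and 2.20. In share of gene reads, complex V took most, at 0.454% and 0.635% in pos, against 0.294%, 0.272% and 0.233% in neg. Complex II took 0.0491% and 0.0457% in pos, against 0.0394%, 0.0375% and 0.0367% in neg.

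**Figure D4:**
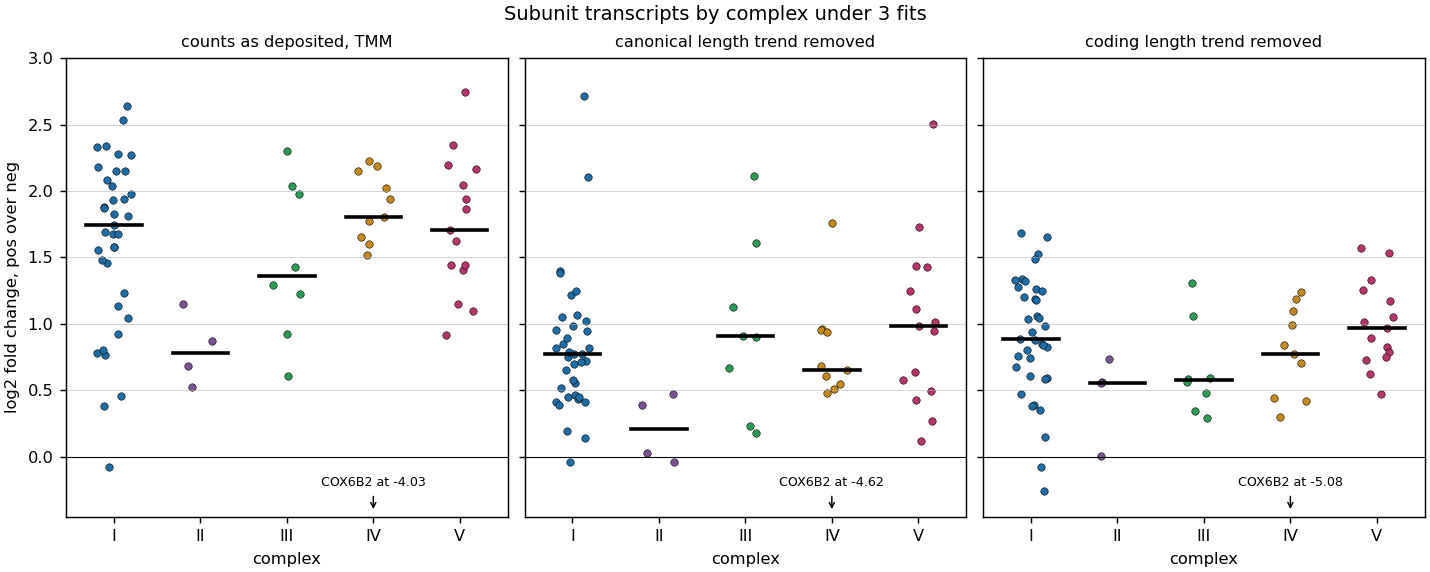
Log2 fold change of pos over neg for each tested subunit row, by complex, in the counts as deposited (left), with each library's trend on canonical transcript length removed (middle) and with the trend on coding length removed (right). Points are genes, black bars are medians over all tested rows of a complex, and COX6B2, below the axis, is marked by an arrow; the complex II median is lowest in each panel, at 0.78, 0.21 and 0.56.

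Levels were compared between genes as CPM per kb of coding sequence. Reads outside the coding sequence may be counted too, so a short coding sequence in a long transcript raises the value. On that scale the median level of complex IV was highest, 1531 in pos and 420 in neg, and that of complex III was next, at 832 in pos and 201 in neg. Complex V stood at 639 in pos and 186 in neg, complex I at 334 in pos and 93.1 in neg, and complex II at 170 in pos and 92.6 in neg. This order is the reverse of that of the median coding lengths. Those were 258 nt for complex IV, 303 nt for III, 426 nt for V, 432 nt for I and 673.5 nt for II. How far the scale itself sets the order was not tested. In neg the extremes of complex I were NDUFA4 at 403 and NDUFV3 at 34.7, and those of complex V were ATP5G2 at 688 and ATP5E at 31.4. COX7B, at 796, had the highest neg level of complex IV and COX6B2, at 9.26, the lowest.

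Of the 8 rows that are not subunits, 4 were tested and 1 passed. UQCRHL, a retrocopy nearly identical to UQCRH, was called higher, with 26.5 and 48.2 CPM in pos, against 12.4, 10.1 and 9.40 CPM in neg (log2 fold change 1.81, SE 0.31, adjusted p = 0.0381). Reads can fall to either copy, so its value is uncertain, and so is that of UQCRH, which had 163 and 406 CPM in pos, against 117, 101 and 99.8 CPM in neg (1.43, SE 0.38, adjusted p = 0.065). ATP5S (now DMAC2L), a factor linked to ATP synthase, had 9.79 CPM in pos replicate 1 and 19.5 CPM in pos replicate 3, against 12.1, 11.5 and 11.3 CPM in neg (0.33, SE 0.32, adjusted p = 0.485). Its pos libraries lay on opposite sides of neg, in the reverse order to NDUFS1. The counts for 37 of the 88 rows may hold reads of a gene on the other strand, since the counting's strand setting is not given in the sources used here.

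Related genes outside the symbol rule were counted by lists, in which no gene was lower at an unadjusted p under 0.05 except among the regulators given last. At that threshold 19.1% of all tested genes were higher and 15.5% lower in pos. At an adjusted p under 0.05, edgeR called 5.06% of all tested genes higher and 4.13% lower. Of 7 further subunits and carriers, 4 rose and 0 fell (median log2 fold change 1.49), against 1 higher and 1 lower with the canonical trend removed (median 0.29) and 2 higher and 1 lower with the coding trend removed (median 0.34). The 4 that rose were the acyl carrier subunit NDUFAB1 (1.61, SE 0.29, adjusted p = 0.0386), the small ATP synthase subunit C14orf2 (1.72, SE 0.34, adjusted p = 0.042), the ATP synthase inhibitor ATPIF1 (1.49, SE 0.33, adjusted p = 0.0476) and the cytochrome c1 subunit CYC1 (2.03, SE 0.46, adjusted p = 0.0496). CYC1 passed in both length fits and NDUFAB1 in the coding fit alone (adjusted p = 0.0783 in the canonical fit), while C14orf2 (adjusted p = 0.0521 canonical and 0.211 coding) and ATPIF1 (0.204 and 0.107) passed in neither. Cytochrome c itself, CYCS, did not pass, at 148 and 154 CPM in pos, against 189, 174 and 172 CPM in neg (-0.24, SE 0.18, adjusted p = 0.353). Its direction and call depended on the length measure, at 0.26 with the canonical trend removed (adjusted p = 0.433) and -1.10 with the coding trend removed (adjusted p = 0.0497). The gene lower with the canonical trend removed was NDUFA4L2, a paralog of NDUFA4 (-1.28, adjusted p = 0.0359).

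Assembly factors build the complexes without staying in them. For complex IV, 10 of 21 tested factors rose and 0 fell (median 1.23), among them the copper chaperone COX17 (1.86, adjusted p = 0.0386), COX16 (1.58, adjusted p = 0.0386) and PET100 (2.27, adjusted p = 0.0386). With the canonical trend removed 12 were higher and 0 lower (median 0.72), and with the coding trend removed 4 were higher and 1 lower (median 0.32). In that coding fit PET100 passed, COX17 (adjusted p = 0.138) and COX16 (adjusted p = 0.159) did not, and the lower gene was COX19 (-1.48, adjusted p = 0.0221). For complex I, 4 of 13 rose and 0 fell (median 0.98), among them NDUFAF6 (1.18, adjusted p = 0.0375), TMEM126B (0.98, adjusted p = 0.0419) and NDUFAF5 (1.37, adjusted p = 0.0446). In both length fits 3 of the 13 were higher and 0 lower (medians 0.21 canonical and 0.58 coding), with TMEM126B past the threshold in neither (adjusted p = 0.701 and 0.088). SDHAF2, which attaches the flavin to SDHA, rose (1.41, adjusted p = 0.0448) as 1 of 2 complex II factors (median 1.39), while 0 of 5 for complex III (median 0.62) and 0 of 3 for complex V (median 0.53) passed in edgeR. At an unadjusted p under 0.05, where 19.1% of all tested genes were higher, 9 of 13 complex I and 13 of 21 complex IV factors were higher, and 3 of the complex III factors (UQCC2, BCS1L and UQCC1) and 0 of the complex V factors were. DESeq2 called 2 of the complex III and 0 of the complex V factors higher, where 13.2% of all tested genes were.

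Neighbouring pathways had smaller medians, and the edgeR shares over all tested genes were 5.06% higher and 4.13% lower. Of 13 citrate cycle genes 3 rose and 0 fell (median 0.41), namely SUCLG1 of succinyl-CoA ligase (1.33, adjusted p = 0.0381), IDH3B of isocitrate dehydrogenase (1.08, adjusted p = 0.0466) and fumarase, FH (0.87, adjusted p = 0.0497). All 3 passed with the coding trend removed, and SUCLG1 alone with the canonical trend removed. Of 13 ubiquinone synthesis genes, COQ6 alone rose (1.49, adjusted p = 0.0382) and 0 fell (median 0.32), which is near those shares. Of 14 regulators of mitochondrial biogenesis, 0 passed in edgeR in either direction in the counts as deposited (median -0.37). At an unadjusted p under 0.05, 1 was higher (TFB1M) and 4 lower (C10orf2, PPRC1, PPARGC1A and GABPB1), against 19.1% and 15.5% of all tested genes. DESeq2 called 1 higher and 2 lower, where 13.2% and 10% of all tested genes were. The coactivator PPARGC1A was at 7.20 and 2.53 CPM in pos, against 11.5, 11.3 and 13.3 CPM in neg (-1.29, SE 0.44, adjusted p = 0.103). TFAM, which packages mitochondrial DNA, was at 149 and 78.8 CPM in pos, against 104, 119 and 145 CPM in neg (-0.11, SE 0.32, adjusted p = 0.825). With the canonical trend removed TFB1M was called higher (adjusted p = 0.0331) and C10orf2 lower (adjusted p = 0.0387), where 7.67% and 7.31% of all tested genes were. C10orf2 has no matched length, so no trend was removed from it. In that fit the regulators' median was -0.18, with PPARGC1A at -0.82 and TFAM at 0.25. With the coding trend removed 0 regulators passed (median -0.34), with PPARGC1A at -1.04 and TFAM at -0.40.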

How the data were processed

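Per the labels' protocols, libraries came from the TruSeq Stranded mRNA kit and reads were aligned with STAR. Versions in the submitters' processing notes are 1.8.2 for CASAVA, 2.5.2b for STAR and 1.24.0 for the authors' DESeq2. The genome build is hg19 in those notes and GRCh38 in the labels' protocols, so coordinates here come only from GENCODE 44 and RefSeq on GRCh38. The authors deposited raw counts per gene symbol in a single table of 25435 rows, of which 92 spike-in rows with 0 reads were left out. Which program counted the reads, and whether by strand, is not given in the sources used here.

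The tests used edgeR 4.0.16 in R 4.3.3. The filter was filterByExpr at a minimum count of 10 and a minimum total of 15, and scaling was by TMM. Pos was compared with neg over all 5 libraries by glmQLFit and glmQLFTest, two-sided and without a block, with Benjamini-Hochberg adjustment over 13604 genes at 0.05. The SE of a log2 fold change is its size over the root of the F statistic. Library ratios use log2 CPM with a prior count of 2. Trends on length were lowess curves (span 0.3) removed as offsets, and 97.5% of tested genes had a canonical and 92.4% a coding length. All 88 members matched GENCODE, 20 of them through older symbols.

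Replicates were distinct libraries, since all pairs within a group differed by more than sampling noise (chi-square per degree of freedom 6.35 to 23.78 for neg pairs, 162.03 for the pos pair). On counts simulated for pos against neg over 13360 genes, edgeR called 58 of 97 genes changed 4-fold, 2 of 98 changed 2-fold and 3 of 13165 unchanged. The simulation drew genes independently, with the same spread in pos and neg and no length trend. These libraries differ from it in both respects, so its rates may not hold for them. Reads were not marked by molecule, so counting intervals cover counting error only.

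Members and lists were chosen with earlier results of these data known, and no list was tested as a set. Named members are, per complex, the 4 smallest p past the threshold, the largest and smallest log2 fold change, listed catalytic and tissue-restricted subunits, and rows whose pos libraries fall on both sides of neg. From each other list the 3 smallest p past the threshold are named. NDUFV2, NDUFS3, NDUFA5, ATP5J, UQCRH, UQCRHL, COX6B1, CYC1, CYCS, TFAM, PPARGC1A, NDUFA12, NDUFC2, COX7A2L, COX19, NDUFA4L2, genes at an unadjusted p only and the motif factors were named after their values were seen. A member that this rule names is not reported here. Alternatives were DESeq2 1.42.0, limma-voom (limma 3.58.1), other scalings and filters, the replicate block, each library left out and removal of the length trend. Coding length and the median length of protein-coding transcripts were added after the data were seen.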

Additional observations from a re-analysis of the deposited data

How the results depend on the processing

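Calls depended on the test and on single libraries, and medians on the length measure, while 6 of the members picked by the naming rule changed sign in some fits. Of the other members, NDUFV3, NDUFA12, NDUFA5, NDUFC2 and COX7A2L did so too. All alternatives were compared for the members picked by that rule, the medians and counts of called genes. Of these values, 560 stayed on their side of the threshold (medians, moved less than the spread), 137 no longer passed and 45 newly passed. A further 41 medians or counts moved, and 16 values changed sign. Against 40 members called higher (median log2 fold change 1.68) and 1251 genes called in all, DESeq2 called 68 and 3161, limma-voom 23 and 1079, and library size scaling 18 and 606 (median 1.20, with the median of all genes at -0.41 and not -0.05). Removing the canonical length trend gave 2038 genes in all and a member median of 0.72, against 0.83 on coding length and 1.40 on the median protein-coding length. Leaving out 1 library gave 0 to 8819 genes in all, 0 to 77 members higher, 0 to 1 lower and medians of 0.92 to 2.19. The 3 fits without a neg library called 0 genes in edgeR, with 3033, 2510 and 2607 at an unadjusted p under 0.05. In the fits with a single pos library, its spread was taken from neg. With the length trend removed as well, 7243 genes, 67 members and a median of 1.02 came without pos replicate 1, and 4990 genes and a median of 0.55 without pos replicate 3. In that fit without pos replicate 1, ATP5C1 changed sign to -0.13 (adjusted p = 0.466), SDHB to -0.19, SDHD to -0.074, UQCRC2 to -0.018 and NDUFS1 to 1.05 (adjusted p = 0.00402). NDUFS1, at -0.07 in the counts as deposited, was also 0.78 with the length trend removed, 0.81 with the block as well, 0.49 with the trend removed and without pos replicate 3, 0.15 on coding length, and -0.35 to 0.16 with 1 library left out. ATP5S, at 0.33, was -0.13 with library size scaling, -0.21 on coding length, -0.29 with the trend removed and without pos replicate 3, and -0.27 to 0.79 with 1 library left out. SDHD was -0.035 with the length trend removed and -0.030 with the block as well. Of these changes of sign, that of NDUFS1 to 1.05 alone passed the threshold. Deviations from the group mean had correlations of -0.443 (neg 1 with pos 1) and -0.448 (neg 3 with pos 3). With 2 pos libraries these deviations mirror each other, so the correlations cannot show whether the replicate numbers pair the libraries. With the replicate block 87 genes, 0 members higher and 0 lower were called. At an unadjusted p under 0.05 there were 54 members and 1669 of all tested genes. With the length trend removed too, there were 481 genes, 11 members and a median of 0.72. COX6B2 was removed by a filter of 5 CPM in 2 libraries, which left 0 members lower. The cause was not tested for the other shifts. At 3 reads per library, levels under 0.189 to 0.316 CPM could not be seen.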
